A study of Mus musculus with 2 samples.

Results

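Members are barcodes of the mouse genital tubercle that carry distal mesenchyme genes together with Dlx2 or Runx1. Of 25346 kept barcodes 1214 were members, 659 of 12192 male and 555 of 13154 female barcodes. A barcode was kept with at least 4000 unique molecular identifiers (UMIs, each counting 1 captured RNA molecule), at least 500 genes, at most 10% mitochondrial UMIs and no UMI of Epcam, Cdh5, Sox10 or Ptprc. These genes mark epithelium, endothelium, glia and immune cells, and none of them marks erythroid cells. A member had at least 1 UMI in 3 or more of the 5 genes Sp9, Vgll2, Gata3, Cpm and Bambi, and at least 2 UMIs of Dlx2 and Runx1 in sum. The members were thus chosen by measured values, and the levels of these 7 genes are given as a description. They were set against 1661 distal barcodes that had 3 or more of the 5 genes and neither Dlx2 nor Runx1 (855 male and 806 female), and against all 22471 other kept barcodes (10678 male and 11793 female).

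The genital tubercle is the embryonic outgrowth that becomes the penis or the clitoris. Both libraries came from wild-type C57BL/6 embryos at embryonic day 14.5 (Theiler stage 22), and each pooled the dissociated tubercles of 3 embryos of 1 sex, taken from 2 litters, so that single embryos cannot be told apart. Droplet 3' single-cell RNA sequencing gave 1 library per sex, which makes 2 libraries the replicates of each comparison within the tissue and leaves 1 sample a group between the sexes. Cells were not treated as replicates.

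Dlx2 encodes a homeodomain factor of the Distal-less family, which acts in the outgrowth of limbs, branchial arches and other appendages. Runx1 encodes a factor of the Runt family that binds DNA with the partner Cbfb. It is best known for its role in blood stem cells and is also used in skeletal and hair follicle mesenchyme. Sp9 is a zinc-finger factor of limb outgrowth, Vgll2 a cofactor of TEAD proteins, Gata3 a zinc-finger factor and Bambi a pseudoreceptor that dampens BMP signalling. Cpm encodes a membrane carboxypeptidase.

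Dlx2 lies on chromosome 2 (71543408 to 71546754, minus strand) and Runx1 on chromosome 16 (92601466 to 92826149, minus strand) of the mm10 build. Their promoter windows, which run from 250 bases before to 50 bases after the start of transcription (RefSeq, GRCm38.p6, the assembly behind mm10), are shown with the letters of the RUNX core in capitals. Beside them stands the second promoter of Zdbf2, the only window with a RUNX core among those of the 12 genes with the highest fold changes described further on. The windows lie at chr16:92826025-92826324 on the minus strand for the first of 2 Runx1 promoters, chr2:71546705-71547004 on the minus strand for Dlx2 and chr1:63273019-63273318 on the plus strand for Zdbf2.
Runx1: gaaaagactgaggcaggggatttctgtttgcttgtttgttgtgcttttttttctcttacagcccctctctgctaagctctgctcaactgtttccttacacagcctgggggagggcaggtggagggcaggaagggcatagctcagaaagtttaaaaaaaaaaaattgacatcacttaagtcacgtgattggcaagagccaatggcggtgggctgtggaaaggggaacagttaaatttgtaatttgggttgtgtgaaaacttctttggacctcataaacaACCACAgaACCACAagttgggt
Dlx2: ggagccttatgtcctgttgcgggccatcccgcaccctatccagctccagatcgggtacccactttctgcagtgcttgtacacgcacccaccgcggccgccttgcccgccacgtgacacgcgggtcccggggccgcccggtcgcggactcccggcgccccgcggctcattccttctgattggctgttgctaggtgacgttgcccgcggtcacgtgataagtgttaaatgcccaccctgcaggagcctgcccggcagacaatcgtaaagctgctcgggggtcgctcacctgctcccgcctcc
Zdbf2: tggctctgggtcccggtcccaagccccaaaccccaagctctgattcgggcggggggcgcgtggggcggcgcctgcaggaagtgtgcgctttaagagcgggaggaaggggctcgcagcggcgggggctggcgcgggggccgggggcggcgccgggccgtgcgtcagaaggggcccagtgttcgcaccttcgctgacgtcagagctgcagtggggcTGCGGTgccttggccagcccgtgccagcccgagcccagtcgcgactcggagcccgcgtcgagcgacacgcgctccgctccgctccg
The RUNX core was searched as TGTGGT or TGCGGT and the homeodomain core as TAATTA, both on either strand, and the cores do not overlap in their letters. The first Runx1 window held 2 copies of the RUNX core, read as ACCACA, starting 28 and 36 bases after the first transcribed base, and the Zdbf2 window held 1 copy. The Dlx2 window and the second Runx1 window (chr16:92697280-92697579, minus strand, not shown) held neither core. Of the 12 genes with the highest fold changes 5 had a promoter in the table, with 6 windows, of which 1 held a RUNX core and 0 a homeodomain core. A RUNX core was present in 22.4% of all 32851 promoter windows, 20.2% of those of tested genes, 17.2% of those of genes higher in members and 17.5% of those of genes lower in members. The homeodomain core was present in 5.29%, 2.46%, 1.93% and 3.97% of the same sets. A match describes these letters and is no evidence of binding.

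Members made up 5.41% of kept male barcodes (exact 95% interval 5.01 to 5.82, counting error only) and 4.22% of kept female barcodes (3.88 to 4.58). Barcodes with 3 or more of the 5 distal genes made up 15.99% of male and 13.2% of female kept barcodes, and members were 33.8% of these among male and 32.0% among female barcodes. The male library thus had the higher share of distal barcodes, while the share of members among distal barcodes differed by less than the counting intervals (31.7 to 35.9 and 29.8 to 34.3). Members were deeper than the other barcodes, with a median of 6998 male and 8032 female UMIs, against 6328 and 6806 in distal barcodes without the pair and 5790 and 6097 in all others. With every barcode thinned to 4000 UMIs before the rule was applied, members made up 2.48% of male and 1.70% of female barcodes.

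The pair became more frequent with each further distal gene. At least 2 UMIs of Dlx2 and Runx1 were found in 0.948% of male and 0.587% of female barcodes with none of the 5 genes, in 25.7% and 23.2% of those with 3, and in 61.1% and 60.7% of those with all 5. After thinning, the shares were 0.547% and 0.309% with none, 20.4% and 17.7% with 3, and 35.4% and 34.9% with all 5. The order was the same in both libraries and with both kinds of counts.

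**Figure D1:**
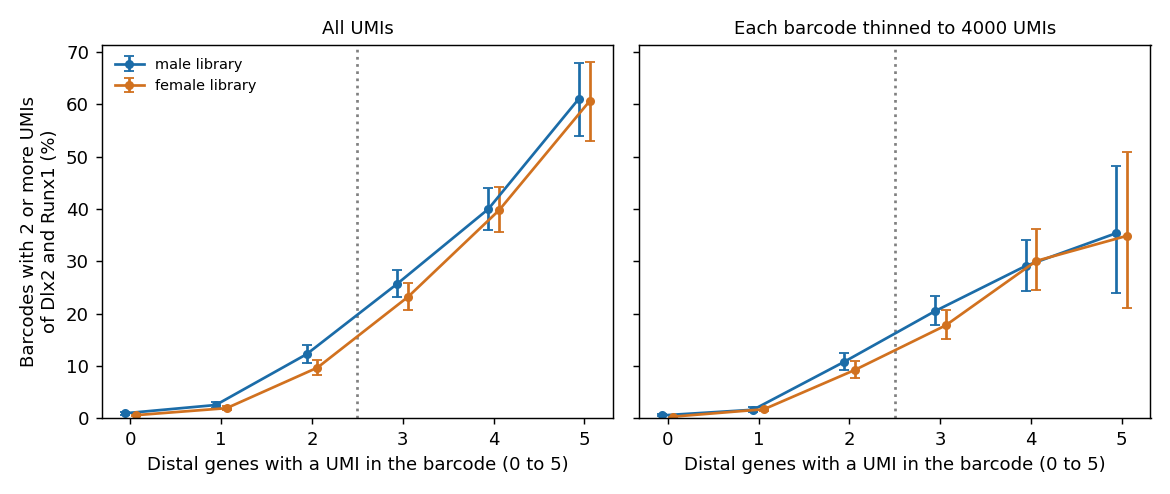
Share of barcodes (%) with at least 2 UMIs of Dlx2 and Runx1, by how many of Sp9, Vgll2, Gata3, Cpm and Bambi had a UMI, in all UMIs (left) and after thinning each barcode to 4000 UMIs (right), with points for the male and the female library, exact 95% binomial intervals as bars and a dotted line at the rule's 3 of 5. With all UMIs the share reached 61.1% in male and 60.7% in female barcodes with all 5 genes, against 0.948% and 0.587% with none.

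Both genes of the pair were present in most members. Of the male members 381 (57.8%) had both genes, 106 had Dlx2 only and 172 had Runx1 only. Of the female members 306 (55.1%) had both, 85 Dlx2 only and 164 Runx1 only. Among all barcodes with 3 or more of the 5 genes, Dlx2 was found in 48.4% of male and 44.2% of female barcodes with Runx1, against 26.5% and 22.9% of those without Runx1. Deeper barcodes hold more of every gene, and after thinning the shares were 38.2% and 36.7% with Runx1, against 25.1% and 22.4% without it. The UMI numbers of both genes were weakly correlated over these barcodes, with Pearson's r of 0.27 in 1950 male and 0.25 in 1737 female barcodes, and 0.17 and 0.11 in the 1280 male and 1043 female barcodes that had 3 or more of the 5 genes after thinning. These barcodes share a library and a rule on the distal genes, and the values are a description.

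In summed UMIs, Dlx2 stood at 173 CPM (UMIs of the gene per 1000000 UMIs of the group) in male and 142 CPM in female members, and Runx1 at 222 and 213 CPM. A member held a mean of 1.48 male and 1.35 female Dlx2 UMIs and 1.91 and 2.03 Runx1 UMIs. The pair was thus read from few molecules a barcode, at least 2 by the rule. Of the other rule genes, Vgll2 stood at 151 and 117 CPM in male and female members, against 62.5 and 48.0 CPM in distal barcodes without the pair. Bambi stood at 971 and 922 CPM in members, against 644 and 603 CPM. Gata3 stood at 128 and 130 CPM, against 85.2 and 82.5 CPM. Sp9 stood at 217 and 180 CPM, against 176 and 171 CPM, and Cpm at 228 and 203 CPM, against 200.03 and 180 CPM. Vgll2 thus differed most and Sp9 and Cpm least among the 5 genes that both groups were chosen by. Bambi was broadly present, with a UMI in 47.4% of male and 49.4% of female barcodes among all other kept barcodes. The rest of the 5 genes had one in 2.67% to 13.2% there.

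Because 0 Dlx2 and Runx1 in the distal barcodes follows from the rule, the pair was also measured in UMIs that had not been used to choose the barcodes. Each UMI was assigned at random to 1 of 2 equal sets, barcodes were classed on one set and levels were taken from the other. There Dlx2 stood at 125 CPM in male and 132 CPM in female members, against 49.8 and 45.1 CPM in barcodes classed as distal without the pair. Runx1 stood at 187 and 183 CPM, against 73.4 and 66.1 CPM. As a group, barcodes classed as lacking the pair therefore held it at a level between that of members and that of the barcodes below 3 of the 5 genes, where Dlx2 stood at 9.503 and 6.91 CPM and Runx1 at 21.2 and 17.2 CPM. Vgll2 kept a difference in the unused set, with log2 ratios of 1.09 in both libraries.

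Dlx1, the genomic neighbour of Dlx2 and often expressed with it in the brain and the branchial arches, was almost undetected. It had 17 male and 7 female UMIs in members, beside 977 and 751 UMIs of Dlx2, against 6 and 8 UMIs in distal barcodes without the pair. These counts lay under the filter on low counts, and Dlx1 was not tested. The antisense gene Dlx1as had 1 male and 0 female UMIs in members, against 2 and 0 in the distal barcodes.

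Free RNA was read from barcodes of other cell types. Dlx2 had a UMI in 2.82% of 177 male and 2.34% of 128 female barcodes with 2 or more Cdh5 UMIs (median 14335 and 11106.5 UMIs), against 73.9% of male and 70.5% of female members. In the same Cdh5 barcodes Runx1 had a UMI in 7.34% of male and 10.2% of female ones, against 83.9% and 84.7% of members. In barcodes in which over 50% of UMIs came from haemoglobin (median 6523 and 6318 UMIs), Dlx2 had a UMI in 0.905% of male and 0.533% of female ones and Runx1 in 1.81% and 1.07%. Both genes were also found outside mesenchyme. Runx1 had a UMI in 66.7% of 39 male and 81.5% of 27 female barcodes with 2 or more Ptprc UMIs. Dlx2 had one in 22.4% of 183 male and 20.5% of 127 female barcodes with 2 or more Epcam UMIs. In the same Epcam barcodes Runx1 had one in 28.4% of male and 22.8% of female ones.

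The label of distal mesenchyme was checked on genes outside the rule. Prrx1, a homeobox gene of limb and tubercle mesenchyme, stood at 600.1 CPM in male and 599 CPM in female members, and all 10 mesenchyme markers had UMIs, with a sum of 3426 and 3271 CPM. The same sum was 3580 and 3710 CPM in distal barcodes without the pair and 4693 and 4590 CPM in all others. Against all others, Twist2, Col1a2, Col3a1, Vim, Twist1 and Dcn, 6 of the 10, were called lower in members. Lum and Col1a1 were called higher (median log2 fold change -0.38). Over all genes tested against all others, 17.9% were called higher and 17% lower. The 8 distal markers that the rule did not use (Msx1, Msx2, Dlx5, Dlx6, Hoxd13, Hoxa13, Wnt5a and Bmp4) summed to 2648 and 2693 CPM in members, against 2381 and 2277 CPM in distal barcodes and 991 and 1024 CPM in all others. Against all others 7 of these 8 were called higher in members and 0 lower. Hoxd13, at 153 and 176 CPM in members against 155 and 173 CPM in all others, did not pass. The sums of the 8 distal markers thus separated both distal groups from the rest of the tissue far more than from each other.

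The summed epithelial, immune and endothelial markers were far below their sums in the cells they mark. The 15 epithelial markers summed to 33.4 male and 31.8 female CPM in members, with 13 of them detected and Cdh1 at 0 UMIs in both libraries, against 30.4 and 20.2 CPM in distal barcodes without the pair and 3807 and 2514 CPM in the Epcam barcodes. Of 8 epithelial markers tested between members and distal barcodes 2 were higher in members and 1 was lower (median log2 fold change 0.45). Wnt10a stood at 6.01 and 3.79 CPM in members, against 1.58 and 0.151 CPM, Krt18 at 12.02 and 13.1 CPM, against 6.96 and 4.37 CPM, and Krt5 at 0.884 and 1.89 CPM, against 4.43 and 3.02 CPM. In all others the epithelial sum was 25.8 male and 17.4 female CPM. Against these barcodes 3 of the 8 tested markers, Wnt10a, Trp63 and Krt18, were called higher in members and 0 lower. Over all tested genes 17.9% were higher and 17% lower there. The part of epithelial markers in the differences between members and distal barcodes was not tested. The 14 immune markers summed to 16.6 and 10.4 CPM, against 16.8 and 23.5 CPM in distal barcodes and 8702 and 7981 CPM in the Ptprc barcodes. The 9 endothelial markers summed to 12.6 and 11.4 CPM, against 10.1 and 10.4 CPM in distal barcodes and 4242 and 3844 CPM in the Cdh5 barcodes. Erythroid RNA differed more, with 9 markers at 3701 and 1998 CPM in members, against 5015 and 11685 CPM in distal barcodes and 7753 and 12030 CPM in all others. The 9 neuron markers summed to 90.0 and 79.7 CPM in members, against 44.2 and 51.9 CPM in all others. Of them Dlx6os1 stood at 44.2 and 35.0 CPM in members. The 7 smooth muscle markers summed to 133 and 64.4 CPM, against 159 and 74.6 CPM in all others. The 10 skeletal muscle markers summed to 9.55 and 8.71 CPM, against 48.4 and 86.7 CPM. The 12 markers of haematopoietic progenitors, mast cells and megakaryocytes summed to 26.9 and 36.9 CPM, against 39.3 and 32.0 CPM. The libraries shared 47 kept barcode sequences, and 0 members were among them.

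The first comparison asked what else differed between distal cells with and without the pair. The genes that rose included the secreted factors Bmp5, Tgfb1, Tgfb2 and Igfbp7 and the transcriptional regulators Lmo2, Ahr, Gata6, Pitx1 and Dlx3. Of 20 S phase genes 13 fell, as did Crabp1 and Crabp2, which encode retinoic acid binding proteins. On UMIs summed per library and group, edgeR's quasi-likelihood test with the library as a block called 602 of 12046 tested genes higher in members (5%) and 460 lower (3.82%) at an adjusted p below 0.05, 8.82% in either direction, and all 1062 had the same direction in both libraries. Of these 130 were higher by a log2 fold change of at least 1 and 37 were lower by as much. The 7 rule genes, the gate genes and mitochondrial genes were left out. Without the library term 231 genes were called higher and 92 lower. The single genes described first are the 12 highest and the 12 lowest log2 fold changes among called genes of at least 30 CPM in the higher group.

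Bmp5, a BMP ligand gene (chromosome 9, 75775364 to 75900310), stood at 49.0 CPM in male and 46.8 CPM in female members, against 10.6 and 13.7 CPM in distal barcodes without the pair (log2 fold change 1.96 ± 0.14 SE, edgeR adjusted p = 8.1e-10). Lmo2, a LIM-domain partner of GATA factors, stood at 78.1 and 66.7 CPM, against 19.3 and 18.7 CPM (1.91 ± 0.13, adjusted p = 3.76e-09). Ahr, the aryl hydrocarbon receptor gene, stood at 77.1 and 65.5 CPM, against 23.1 and 20.5 CPM (1.70 ± 0.10, adjusted p = 5.02e-11). For all 3 genes both members' sums lay above both distal sums.

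Igfbp7, a secreted binding protein of the insulin-like growth factor axis, stood at 118 and 101 CPM in members, against 38.9 and 28.4 CPM (1.69 ± 0.11). It had a UMI in 51.0% of male and 50.5% of female members, against 18.4% and 16.3% of distal barcodes. Pitx1, a homeobox gene of the hindlimb and the perineal region, was outside the 12 highest but more abundant, at 362 and 341 CPM, against 167 and 150 CPM (1.14 ± 0.04, edgeR adjusted p = 9.07e-15). Dsc3, a desmosomal cadherin gene better known from epithelium, stood at 134 and 129 CPM, against 55.8 and 47.7 CPM (1.34 ± 0.09). Beside Bmp5, Lmo2, Ahr, Igfbp7 and Dsc3, the 12 highest were Nav3, Gata6, Tgfb1, Zdbf2, Dlx3, Lum and Hs3st3b1, with log2 fold changes between 1.26 and 1.52. Lum, a small proteoglycan gene, differed between the libraries as well, at 113 CPM in male and 62.5 CPM in female members, against 46.0 and 26.7 CPM.

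Among the genes that fell the changes were smaller in size. Pdlim3, which encodes an actin-associated PDZ-LIM protein, stood at 17.9 CPM in male and 28.0 CPM in female members, against 59.0 and 56.7 CPM in distal barcodes (-1.36 ± 0.13, edgeR adjusted p = 4.58e-06). Crabp2 stood at 258 and 274 CPM, against 389 and 442 CPM (-0.65 ± 0.04, adjusted p = 1.36e-10), and Crabp1 at 139 and 171 CPM, against 233 and 246 CPM (-0.64 ± 0.05). Cxcl12, a chemokine gene, stood at 46.3 and 59.5 CPM, against 84.6 and 88.8 CPM (-0.73 ± 0.10). Tmem100, Gfra2, Irx5, Matn2, Npnt, Col4a1, Lhfp and Vcam1 made up the rest of the 12 lowest, at log2 fold changes of -1.20 to -0.63.

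**Figure D2:**
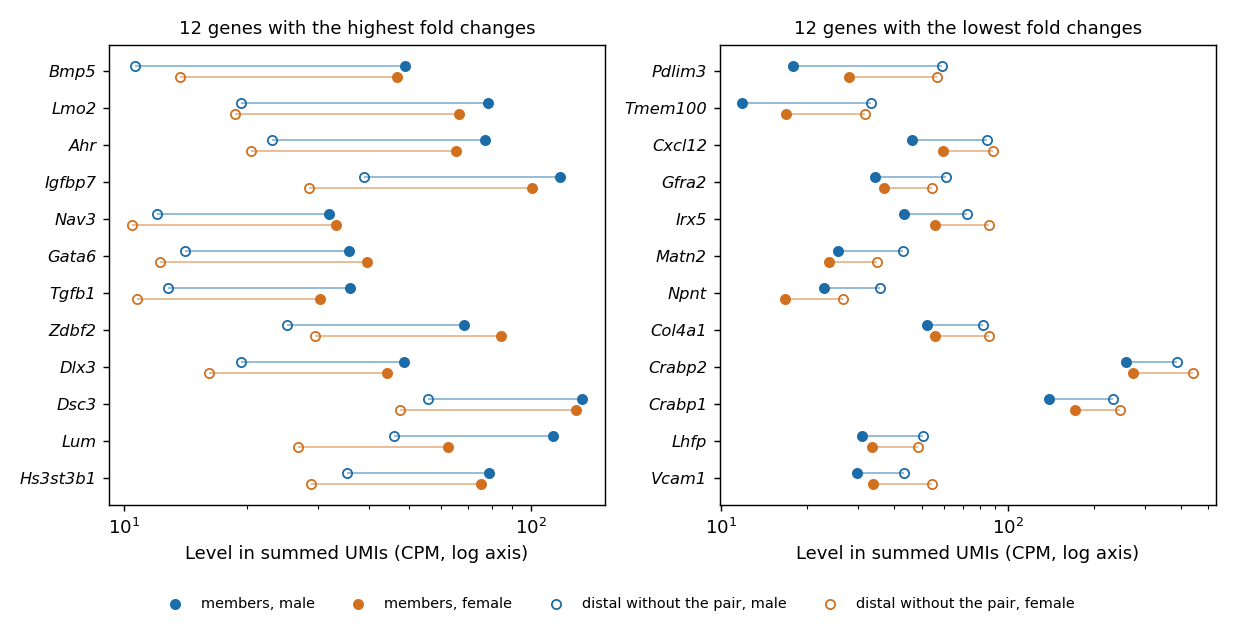
Levels (CPM of summed UMIs, log axis) of the 12 genes with the highest and the 12 with the lowest log2 fold changes, in members (filled) and in distal barcodes without Dlx2 or Runx1 (open), for the male and the female library, with a line joining both groups of 1 library. Bmp5 stood at 49.0 and 46.8 CPM in members against 10.6 and 13.7 CPM. Every gene moved the same way in both libraries, which the choice of these genes required.

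Among the other factors of the Dlx, Msx and Sp families, 4 of 9 tested genes rose and 0 fell (median log2 fold change 0.36, against 0.00 over all tested genes). Sp6 stood at 21.2 and 23.9 CPM in members, against 5.22 and 3.77 CPM (2.32 ± 0.21, edgeR adjusted p = 3.09e-08). Dlx3, which patterns ectodermal organs and bone, stood at 48.6 and 44.3 CPM, against 19.3 and 16.1 CPM (1.38 ± 0.11). Msx1 and Msx2, homeobox genes downstream of BMP signals, rose by 0.36 ± 0.03 and 0.26 ± 0.04 on the log2 scale. Dlx5, at 258 and 231 CPM in members against 250.0 and 205 CPM, did not pass (0.09 ± 0.05, adjusted p = 0.378).

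Of 9 Runx family and cofactor genes 4 rose and 1 fell (median 0.13). Runx2, the regulator of osteoblasts, stood at 38.0 and 41.5 CPM in members, against 27.0 and 22.6 CPM (0.67 ± 0.11, edgeR adjusted p = 0.000257). Runx3 rose by 0.38 ± 0.10 and the corepressor gene Tle4 by 0.21 ± 0.05, while Runx1t1 fell by 0.27 on the log2 scale (SE 0.05). Cbfb, the partner of all Runx proteins, was the other gene that rose. Tle4 lost its difference when members were chosen on one set of the UMIs and measured on the other (-0.02, adjusted p = 0.975).

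Of 11 GATA, Vgll and TEAD genes 5 rose and 0 fell (median -0.02). Gata6 stood at 35.7 and 39.4 CPM in members, against 14.1 and 12.2 CPM (1.50 ± 0.14), and Gata2 and the GATA cofactor gene Zfpm1 were at lower levels and rose by 1.35 ± 0.28 and 1.03 ± 0.26. Of 44 other patterning factors 11 rose and 11 fell (median -0.05). Lhx9, a LIM homeobox gene of limb and gonad, stood at 22.6 and 23.7 CPM in members, against 3.64 and 5.88 CPM (2.27 ± 0.20). Tbx3, Tbx4 and Six2 were among those that rose, and Irx3, Irx5, Meis1, Meis2, Twist1 and Twist2 among those that fell. Of 12 posterior Hox genes 2 rose, Hoxa9 and Hoxc9, and 2 fell, Hoxd11 and Hoxd13. Hoxd13, the last gene of its cluster and needed for digits and the tubercle, stood at 153 and 176 CPM in members, against 196 and 213 CPM (-0.33 ± 0.04).

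The signalling lists moved mostly one way. In the BMP list 11 of 28 tested genes rose and 0 fell (median 0.17). Beside the ligand Bmp5, these were the antagonists Nbl1 (1.02 ± 0.07), Fst (0.85 ± 0.17) and Nog, the intracellular inhibitors Smad6 and Smad7, the targets Id1 and Id3, and Gdf6, Bmp4 and Fstl1. Ligands, inhibitors and targets were thus all among the genes that rose.

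In the Wnt list 14 of 38 rose and 5 fell (median 0.22). The ligand gene Wnt6 stood at 25.3 and 21.4 CPM in members, against 8.54 and 5.13 CPM (1.76 ± 0.18). Notum, which encodes a secreted enzyme that inactivates Wnt proteins and is itself a Wnt target, stood at 96.7 and 107 CPM, against 47.0 and 40.6 CPM (1.20 ± 0.08, edgeR adjusted p = 5.53e-10). Axin2, Lef1, Nkd1 and Apcdd1, known targets or feedback genes of the pathway, rose as well. Those that fell were Sostdc1, Rspo3, Frzb, Sfrp2 and Fzd2.

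In the FGF list 8 of 20 rose and 0 fell (median 0.40). Dusp6, a phosphatase gene induced by FGF signals, stood at 38.7 and 43.0 CPM in members, against 22.1 and 24.3 CPM (0.81 ± 0.12, edgeR adjusted p = 2.82e-05). The feedback genes Spry1 and Spry4 rose by 0.73 ± 0.10 and 0.81 ± 0.13, and Fgf9, Fgf18, Fgfr1, Etv1 and Il17rd rose too. Of 8 tested Notch genes 3 rose, the targets Hey2 (1.15 ± 0.15), Hey1 (0.75 ± 0.09) and Hes1 (0.52 ± 0.05). Hes1 stood at 247 and 241 CPM in members, against 182 and 156 CPM.

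The Hedgehog list went the other way, with 0 of 14 higher and 3 lower (median -0.23). Ptch1, receptor and target of the pathway, stood at 119 and 124 CPM in members, against 150 and 172 CPM (-0.41 ± 0.05, edgeR adjusted p = 4.16e-06), and Foxf2 and Gas1 fell with it. Gli1, the most direct target, stood at 17.1 and 19.7 CPM, against 23.1 and 22.3 CPM, and did not pass (adjusted p = 0.146). Of 12 retinoic acid genes 2 rose, Stra6 and Aldh1a3, and 2 fell, Crabp1 and Crabp2. None of 7 tested genes of steroid conversion and reception passed in either direction by edgeR, nor by DESeq2.

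Of 24 genes of the growth factor list 10 rose and 2 fell (median 0.17). Tgfb2 stood at 204 and 202 CPM in members, against 87.1 and 83.0 CPM (1.24 ± 0.05, edgeR adjusted p = 5.38e-14), and Tgfb1 at 35.9 and 30.3 CPM, against 12.8 and 10.7 CPM (1.48 ± 0.14). Among 32 matrix genes 12 rose and 3 fell (median 0.13). The 2 chains of type I collagen parted, since Col1a1 rose by 0.45 ± 0.07 and Col1a2 fell by 0.52 on the log2 scale (SE 0.04), and both passed. Of 11 skeletal progenitor genes 5 rose, Sp7, Sox6, Sox9, Sox5 and Hapln1 (median 0.62). Sp7, which encodes the osteoblast factor osterix, stood at 21.9 and 30.3 CPM, against 9.96 and 11.01 CPM (1.30 ± 0.16). In adhesion and guidance 6 of 28 rose and 6 fell, and of 10 genes of other mesenchyme domains Sall1 rose and Lbx2, Agtr2 and Npnt fell. Agtr2 had the other sign, 0.34, when members were chosen and measured on separate sets of the UMIs.

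Cell cycle genes differed by phase. Of 20 S phase genes 13 fell and 0 rose (median -0.29). Rrm2, a subunit of ribonucleotide reductase, stood at 122 and 143 CPM in members, against 174 and 191 CPM (-0.47 ± 0.05, edgeR adjusted p = 2.27e-07), and Tyms and Mcm6 fell by 0.40 and 0.38 on the log2 scale. None of 20 G2 and M phase genes passed by edgeR or DESeq2 (median 0.03). Of 12 cell cycle inhibitors 5 rose and 0 fell (median 0.25). Cdkn1c, which encodes the inhibitor p57, stood at 698 and 628 CPM, against 469 and 436 CPM (0.54 ± 0.04), and Gadd45b, Gadd45g, Btg2 and Cdkn1a were the others.

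Of 20 glycolysis and hypoxia genes 14 rose and 0 fell (median 0.33). Ldha stood at 714 and 704 CPM in members, against 479 and 455 CPM (0.59 ± 0.04, edgeR adjusted p = 1.96e-10), Bnip3 rose by 0.68 ± 0.09 and Pdk1 by 0.67 ± 0.11. Of 24 immediate early and heat shock genes, which also respond to tissue dissociation, 14 rose and 0 fell (median 0.41). Hspb1 stood at 112 and 102 CPM, against 56.6 and 42.2 CPM (1.10 ± 0.08), and Fos, Jun, Egr1 and Hspa1a were among the others. The median mitochondrial share was 6.52% in male and 6.55% in female members, against 6.68% and 6.64% in distal barcodes. Of 19 apoptosis genes 2 rose, Bmf and Bcl2l11. The part of the higher depth of members in these differences was not tested. Thinned to 4000 UMIs, 407 of 10600 tested genes were higher (3.84%) and 279 lower (2.63%). There the glycolysis list had 11 genes higher and 1 lower of 19, the immediate early and heat shock list 10 and 0 of 22, and the S phase list 0 and 9 of 20.

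The counts were smaller where the choice of members and the measurement used separate sets of the UMIs, which leaves fewer UMIs for both steps. There 164 of 10388 tested genes were called higher (1.58%) and 77 lower (0.741%), with 4 BMP genes higher and 0 lower of 25, 6 Wnt genes higher and 0 lower of 36 and 2 FGF genes higher and 0 lower of 19. The Hedgehog list had 0 higher and 2 lower of 14, the S phase list 0 and 4 of 20, the glycolysis and hypoxia list 8 and 0 of 19 and the immediate early and heat shock list 9 and 0 of 23. The Runx list had 1 higher and 1 lower of 9, and the GATA, Vgll and TEAD list 1 higher and 0 lower of 11.

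**Figure D3:**
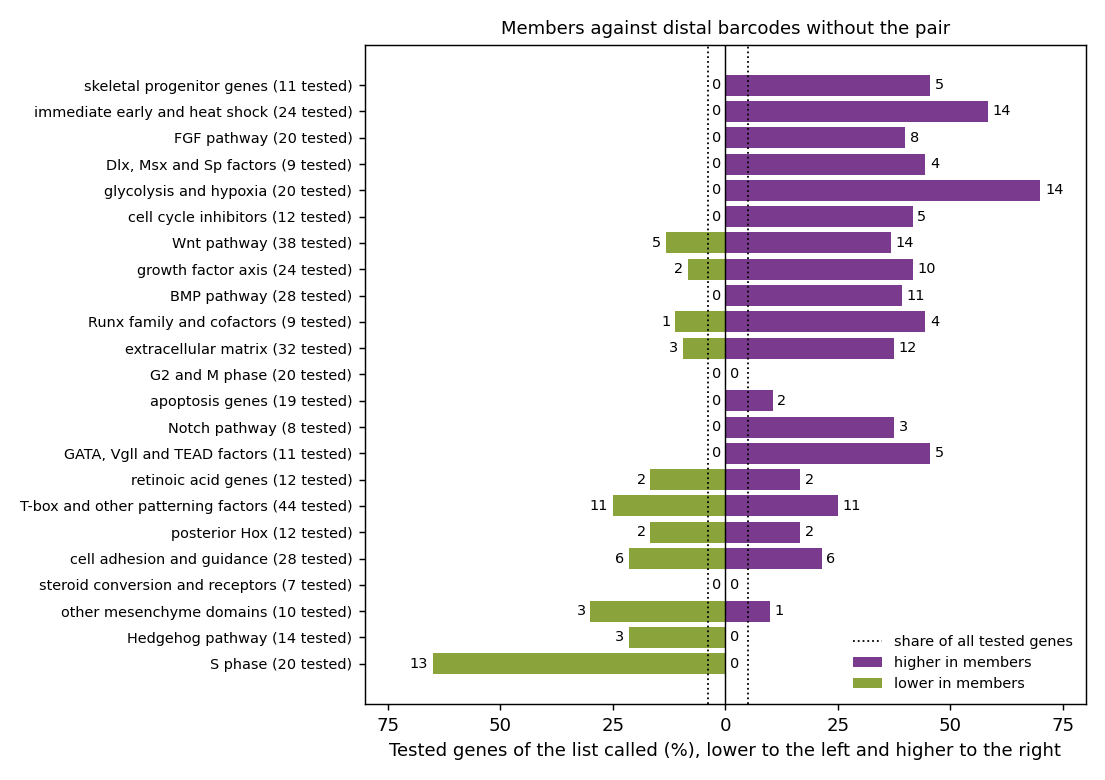
Share (%) of the tested genes of each list that were called higher (to the right) or lower (to the left) in members than in distal barcodes without Dlx2 or Runx1, with the number of genes at each bar and lists ordered by their median log2 fold change and dotted lines at the shares over all tested genes, 5% higher and 3.82% lower. The S phase list held 13 lower genes of 20 and the glycolysis and hypoxia list 14 higher of 20.

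Levels were also read by the number of Dlx2 and Runx1 UMIs at equal depth. These UMIs are those of the rule, and the genes were chosen for their difference between members and distal barcodes, so the values are a description. All 12 highest genes stood higher with 4 or more UMIs of the pair than with 0 in both libraries, and 5 of them did not go down at any step. Of the 12 lowest genes 11 stood lower with 4 or more UMIs in both libraries, with Lhfp the exception, and 0 went down or stayed level at every step. Among distal barcodes thinned to 4000 UMIs, Pitx1 stood at 190, 290, 438, 477 and 482 CPM in male barcodes with 0, 1, 2, 3 and 4 or more UMIs of the pair, and at 151, 307, 363, 397 and 531 CPM in female ones. Tgfb2 stood at 87.5, 149, 282, 256 and 373 CPM in male and at 92.7, 176, 227, 254 and 369 CPM in female barcodes. Both thus went up over most steps, from 643 male and 553 female barcodes with 0 UMIs to 57 and 40 with 4 or more.

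Crabp2 went down, at 315, 231, 188, 122 and 83.3 CPM in male and 349, 253, 168, 179 and 75 CPM in female barcodes. Prrx1 showed no such order, at 585, 595, 576, 585 and 513 CPM in male and 580, 551, 602, 513 and 619 CPM in female barcodes, nor did Dlx5. The step at the rule's threshold, between 2 UMIs and 1 UMI of the pair, was read without thinning, so depth was not equal there. The 12 highest genes were higher with 2 UMIs in both libraries, and of the 4 lowest genes Pdlim3 was lower in both. After thinning, 2 UMIs went with less Dlx3 in male barcodes (49.4 CPM, against 56.0 CPM with 1 UMI). The same held for Hs3st3b1 in female barcodes (85.9 CPM, against 102 CPM). Without thinning, Lmo2 stood at 66.3 CPM in male and 54.0 CPM in female members with exactly 2 UMIs of the pair. It stood at 39.6 and 32.3 CPM in barcodes with 1 UMI, which were not members. Other steps were small, with Bmp5 at 44.0 and 31.9 CPM with 2 UMIs, against 29.6 and 30.4 CPM with 1, and Cxcl12 at 52.4 and 65.3 CPM, against 52.0 and 66.9 CPM.

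**Figure D4:**
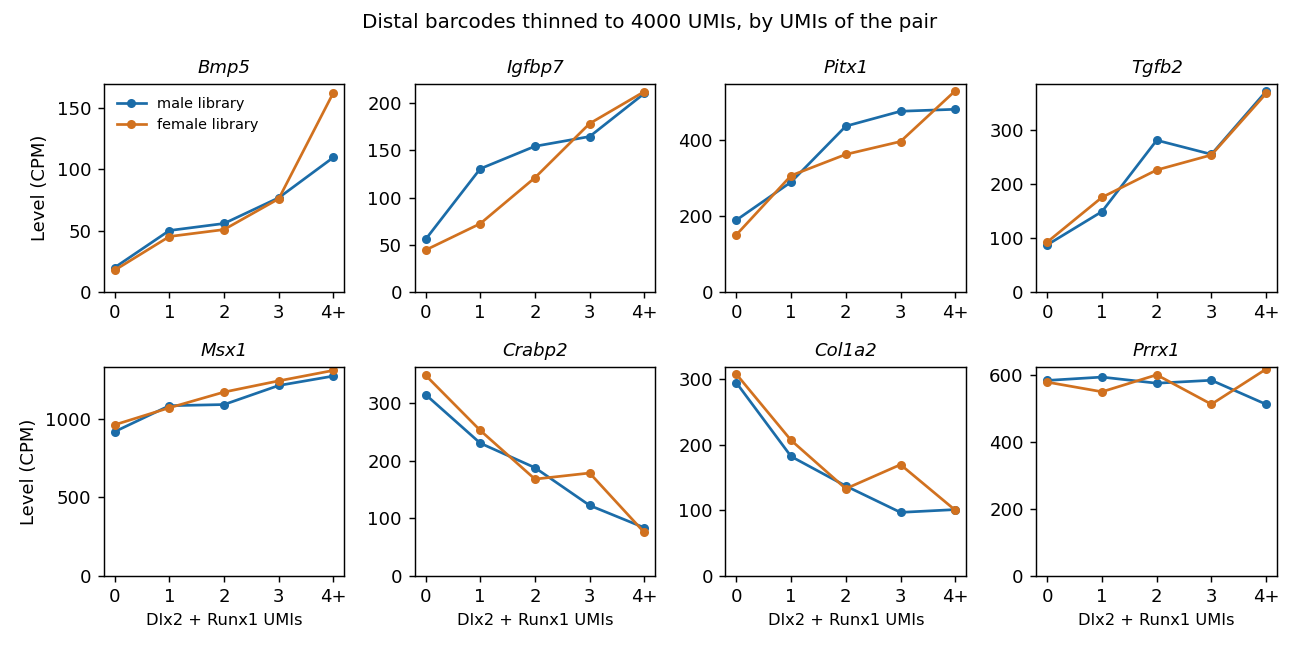
Levels (CPM) of 8 genes in barcodes with 3 or more of the 5 distal genes, thinned to 4000 UMIs, by the number of Dlx2 and Runx1 UMIs (0 to 4 or more), in the male and the female library. Pitx1, Tgfb2, Bmp5, Igfbp7 and Msx1 go up over most steps, Crabp2 and Col1a2 go down and Prrx1 stays between 513 and 619 CPM.

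Against all other kept barcodes, most of which had fewer than 3 of the 5 distal genes, the differences were larger. edgeR called 2159 of 12046 tested genes higher in members (17.9%) and 2047 lower (17%). With so many calls a count is read against these shares. Dlx3 stood at 48.6 CPM in male and 44.3 CPM in female members, against 4.33 and 3.79 CPM in all others (3.54 ± 0.10, edgeR adjusted p = 1.58e-18). Vegfd, a lymphatic growth factor gene, stood at 42.2 and 47.5 CPM, against 4.87 and 4.98 CPM (3.21 ± 0.10). The RNA Gm43376, annotated as antisense, stood at 183 and 146 CPM, against 21.2 and 16.02 CPM (3.17 ± 0.05). Ahr, Dlx6os1, Igfbp7, Lmo2, Tgfb1, Nkain3 and Dync1i1 were the other 7 of the 10 highest, at 2.61 to 3.11. The members are the same as in the first comparison, so its calls are no separate evidence for those genes.

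The genes lower in members than in all others included Meis1, a proximal homeobox gene, at 30.6 CPM in male and 39.4 CPM in female members, against 133 and 148 CPM (-1.99 ± 0.06, edgeR adjusted p = 2.58e-17). Foxq1 stood at 17.5 and 18.7 CPM, against 79.1 and 73.1 CPM (-2.05 ± 0.09). Grem1, a BMP antagonist of the limb, stood at 6.19 and 10.2 CPM, against 23.9 and 40.3 CPM (-1.94 ± 0.12). Of the 10 genes of other mesenchyme domains 8 fell, and of 14 Hedgehog genes 10 fell and Gli3 rose. Of the Dlx, Msx and Sp factors 8 of 9 rose, and of 20 G2 and M phase genes 18 rose and 0 fell (median 0.34), or 7 and 0 after thinning, where 12.3% of tested genes were higher and 10.9% lower. In the S phase list 12 fell and Dtl rose. Fgf18, a ligand gene, stood at 5.30 and 4.17 CPM in members, against 9.65 and 11.4 CPM in all others (-1.12 ± 0.18), and against 1.26 and 1.66 CPM in distal barcodes without the pair (1.69 ± 0.35).

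The third comparison asked whether members with Dlx2 and no Runx1 (106 male and 85 female) differed from those with Runx1 and no Dlx2 (172 and 164). Few genes were called, 31 of 9764 higher in the Dlx2 members (0.317%) and 38 lower (0.389%) by edgeR, 0.707% in either direction. The highest included genes of DNA replication and Id1, a BMP target that blocks bHLH factors. The lowest included Inhba, Dkk1, Col1a2, Gata6 and Mab21l2. Dlx2 members had a median of 6432.5 male and 6670 female UMIs, against 6969 and 8137.5 in Runx1 members. With each barcode thinned to 4000 UMIs, and with members chosen and measured on separate sets of the UMIs, Id1 was the only gene called.

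Id1 stood at 1070 CPM in male and 1205 CPM in female Dlx2 members, against 692 and 627 CPM in Runx1 members (0.82 ± 0.07, edgeR adjusted p = 4.33e-14). It stayed called in each alternative fit that was run, with log2 fold changes of 0.66 to 0.89. Smad7, Id2 and Id3 rose too, so that 4 of 23 tested BMP genes were higher and 0 lower. Msx1 and Msx2 rose by 0.24 ± 0.06 and 0.48 ± 0.09. The replication genes Mcm10, Exo1, Mcm6, Mcm3 and Pclaf were called higher at 0.58 to 1.27, but Mcm6 turned to -0.05 after thinning.

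Inhba, which encodes the activin A subunit, stood at 20.6 CPM in male and 15.5 CPM in female Dlx2 members, against 68.9 and 92.7 CPM in Runx1 members (-2.12 ± 0.25, edgeR adjusted p = 2.18e-08). Dkk1, a secreted Wnt inhibitor gene, stood at 54.5 and 63.6 CPM, against 132 and 150 CPM (-1.23 ± 0.15, adjusted p = 1.07e-07). Col1a2 stood at 229 and 184 CPM, against 418 and 452 CPM (-1.04 ± 0.10, adjusted p = 6.33e-11). Mab21l2, a factor of eye and body wall, stood at 7.27 and 12.7 CPM, against 48.0 and 53.6 CPM (-2.34 ± 0.31). In all 4 genes both Dlx2 sums lay under both Runx1 sums, but they had been chosen for low fold changes with 1 direction in both libraries. Of 30 matrix genes 4 fell, Tnc, Col1a2, Col6a2 and Fn1, and of 20 G2 and M phase genes 4 fell, Cdc20, Ccnb1, Ube2c and Cenpf. The epithelial keratin gene Krt18 fell too, at 2.42 and 4.24 CPM, against 20.9 and 25.1 CPM (-2.77 ± 0.51). The 15 epithelial markers summed to 29.1 and 24.0 CPM in Dlx2 members, against 39.8 and 51.3 CPM in Runx1 members, with Cdh1 at 0 UMIs in each, and their part in the result was not tested.

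**Figure D5:**
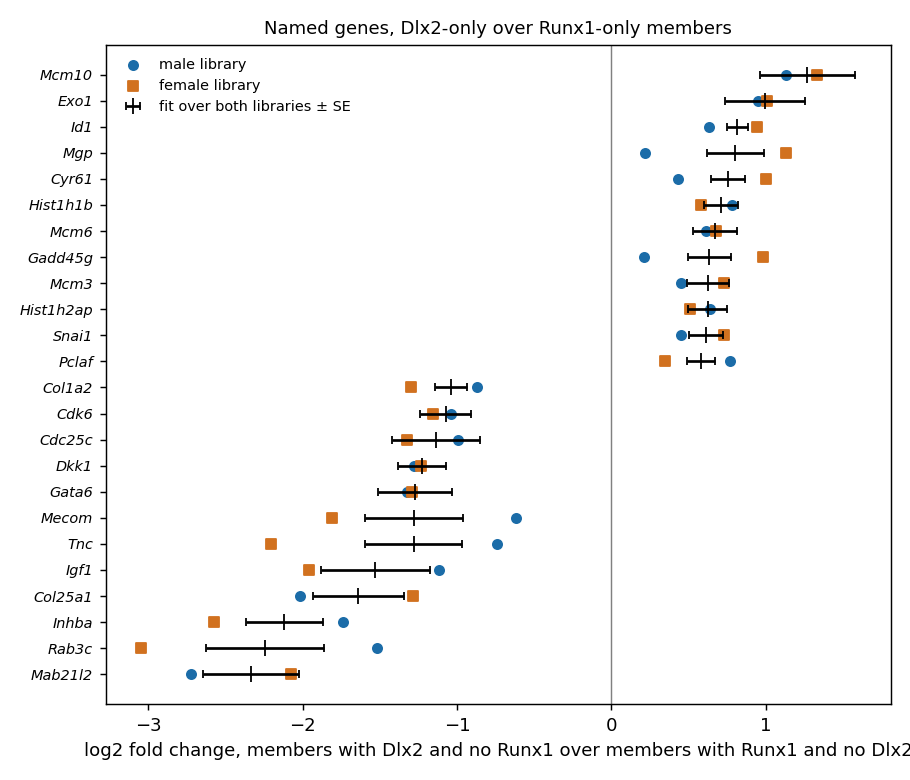
log2 fold change of members with Dlx2 and no Runx1 over members with Runx1 and no Dlx2, for the 12 highest and the 12 lowest named genes, with points for each library and ticks with bars for the edgeR fit over both ± SE. Id1 lies at 0.82 and Inhba at -2.12, and all 24 genes have the same sign in both libraries, which their choice required.

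Between the sexes there was 1 library each, so no test was made. Among 8523 genes with at least 100 UMIs over both members' sums, 115 had a male over female log2 ratio of at least 0.5 (1.35%) and 146 one of at most -0.5 (1.71%), around a median of -0.03. The 5th to 95th percentile ran from -0.37 to 0.32. Xist stood at 0.177 CPM in male and 1551 CPM in female members, and the Y-linked gene Ddx3y at 67.0 and 0 CPM. With Y-linked genes, Xist and Tsix left out, the highest ratio among genes of at least 50 CPM in the higher library was that of the embryonic globin gene Hbb-y, at 2382 CPM in male and 266 CPM in female members. It rested on few barcodes: 1 male member held 43.4% of its 13474 male UMIs. Acta2, a smooth muscle actin gene, stood at 56.4 CPM in male and 17.2 CPM in female members (log2 ratio 1.71, interval 1.37 to 2.06), and 1 male member held 59.6% of its UMIs. With at most 15000 UMIs a barcode the Acta2 ratio was 0.46, and after thinning it was -0.75. The Hbb-y ratio was -0.11 after thinning.

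Several ratios were close to those in the distal barcodes. Hist1h2ap, a histone gene, stood at 245 CPM in male and 80.5 CPM in female members (1.61) and at 248 CPM and 81.6 CPM in distal barcodes (1.61). Rspo3, a Wnt agonist gene, stood at 47.9 CPM in male and 70.1 CPM in female members (-0.55, interval -0.78 to -0.32) and at -0.59 in distal barcodes. Eif2s3x and Pbdc1, both X-linked, stood at -0.78 and -0.57. Bcl11b, a zinc-finger factor gene, stood at 48.8 CPM in male and 72.3 CPM in female members (-0.57, interval -0.80 to -0.34), beside -0.19 (-0.37 to -0.01) in distal barcodes.

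The 20 S phase genes were all lower in male than in female members, 10 with an interval below 0 (median -0.19), and summed to 1515 CPM in male and 1723 CPM in female members. In distal barcodes 14 of the 20 were lower in the male library (median -0.06) and in all others 17 (median -0.14). The G2 and M phase list stood at a median of 0.07 in members, beside -0.19 in distal barcodes and -0.19 in all others. Glycolysis and hypoxia genes were higher in male than in female members in 14 of 17 cases (median 0.12), and in 14 and 13 of 17 in the other groups. Of the 7 rule genes 6 were higher in male members. The rule asks for fixed UMI numbers of these genes, and median depth was 6998 UMIs in male and 8032 in female members. This count is therefore a description of the choice. With 1 pool per sex these differences cannot be told apart from differences between pools or runs.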

How the data were processed

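Droplet 3' RNA sequencing (10x v3.1) measured 2 libraries, 1 male and 1 female. Per the submitters' processing notes the authors used Cell Ranger 3.1 and mm10, and deposited raw UMI counts per gene and barcode. Kept barcodes had at least 4000 UMIs, 500 genes and at most 10% mitochondrial UMIs. A UMI of a gate gene removed 885 male and 788 female barcodes. Library totals were 130105692 male and 144515562 female UMIs, of which members held 5657211 and 5281073.

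UMIs were summed per library and group, and the sums were tested with edgeR 4.0.16 (R 4.3.3; quasi-likelihood, TMM, filter on low counts, library as a block, Benjamini-Hochberg adjustment, threshold 0.05) over all tested genes. Since the same 2 libraries hold both groups of each comparison, the library paired the sums. The sums of all other kept barcodes were in the same fit as those of members and distal barcodes. The sums of members with both genes were in the fit of Dlx2 and Runx1 members. The spread behind each p-value thus came from all groups of a fit, not from the compared groups alone. Each p-value rests on 2 libraries, and whether the pools vary like separate experiments is not known. Between the sexes no test was made, and exact conditional 95% Poisson intervals cover counting error only. The scripts were tested on simulated data.

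Named genes were the 12 highest and 12 lowest log2 fold changes (10 each against all others) of called genes with 1 direction in both libraries and at least 30 CPM in the higher group, up to 4 of each list, and the rule genes. Between the sexes they were the 8 highest and 8 lowest ratios with at least 100 UMIs and 50 CPM. Further list members are named to account for a count. Members and lists were chosen with earlier results of these data known.

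Scrublet (scanpy 1.11.5) marked 0 male and 1 female barcodes and so did not work as a doublet caller. No doublets were removed, and an alternative left out the highest scores (1189 male and 1384 female barcodes). Other alternatives were DESeq2 1.42.0, RLE size factors, no filter on low counts, no library block, thinning to 4000 UMIs, separate UMI sets, UMI limits of 6000 and 15000, 5% mitochondrial UMIs, 4 of the 5 genes, either library left out and, added after seeing the data, at most 1% haemoglobin UMIs. Of 31053 gene IDs 30934 matched GENCODE M21. Some items are not reported here.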

Additional observations from a re-analysis of the deposited data

Results flagged for a closer look

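Hbb-y, an embryonic globin gene, had opposite sex directions in both distal groups. Its male over female log2 ratio was 3.16 in members (2382 CPM in male and 266 CPM in female members) and -2.12 in distal barcodes without Dlx2 or Runx1 (1385 CPM in male and 6005 CPM in female barcodes). Hba-x stood at 2.51 in members and -1.76 in distal barcodes. The difference between the groups was not tested. Of the male members 1 held 43.4% of the male Hbb-y UMIs, and more than 1% of UMIs came from haemoglobin in 4 male and 4 female members, beside 13 male and 22 female distal barcodes. Without these barcodes Hbb-y stood at -0.09 and Hba-x at -0.32 in members.

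Barcodes outside the kept set also met the rest of the rule. Among barcodes with at least 1000 and under 4000 UMIs and no gate gene, 147 of 4598 male ones (3.20%, exact 95% interval 2.71 to 3.75) and 125 of 5112 female ones (2.45%, 2.04 to 2.91) did so. Among barcodes with at least 4000 UMIs that a gate gene had removed, 31 of 885 male ones (3.50%, 2.39 to 4.94) and 21 of 788 female ones (2.66%, 1.66 to 4.04) did so. By gate gene, these were 21 of 517 male and 17 of 489 female barcodes with Epcam, 9 of 269 and 3 of 202 with Cdh5, 1 of 54 and 1 of 66 with Sox10, and 0 of 57 and 0 of 39 with Ptprc. A gate UMI can come from free RNA, and how many of these are distal mesenchyme was not tested.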

How the results depend on the processing

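The counts of called genes depended on the fit and on depth. With members before distal barcodes without the pair (602 higher and 460 lower), DESeq2 called 304 and 190, separate UMI sets 164 and 77, and 4 of the 5 genes 252 and 127. Thinning called 279 lower, and 309 of the higher and 190 of the lower genes were called again. Against all other barcodes (2159 and 2047), DESeq2 called 1198 and 988, thinning 1300 and 1160 and separate UMI sets 984 and 816. For Dlx2 against Runx1 members (31 and 38), DESeq2 called 11 and 9, at least 6000 UMIs 13 and 20, 4 of the 5 genes 1 and 3, and thinning and separate UMI sets 1 and 0 each. No filter on low counts gave 58 lower genes, at most 15000 UMIs 49 higher and the highest Scrublet scores left out 59 higher.

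The library block pairs both groups of a library. With no replicate block, 231 and 92 genes were called against distal barcodes, 1234 and 1095 against all others, and 5 and 14 between Dlx2 and Runx1 members. No paired analysis was possible between male and female because each sex has 1 library.

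Members made up 6.89% of male and 5.59% of female barcodes with at least 6000 UMIs, 4.83% and 2.52% at up to 5% mitochondrial UMIs, 3.002% and 2.38% with 4 of the 5 genes, 4.99% and 3.83% without the highest Scrublet scores, 2.48% and 1.70% after thinning, and 1.89% and 1.31% with separate UMI sets. Genes past the male over female limit numbered 74 higher and 84 lower after thinning, and 26 and 42 at up to 5% mitochondrial UMIs.

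Some log2 values of named genes changed sign. Against distal barcodes these were Tle4 (-0.018) and Agtr2 (0.34) with separate UMI sets and Syt1 (-0.10) with 4 of the 5 genes, and against all others Srd5a1 (-0.18, thinned). Between Dlx2 and Runx1 members these were Hist1h1b (-0.062), Mcm6 (-0.050), Cdk6 (0.059), Nrp2 (0.22) and Cdc20 (0.13) after thinning and Mgp (-0.18) with 4 of the 5 genes. Between male and female these were Hbb-y (-0.11), Acta2 (-0.75), Tagln (-0.56) and Usp46 (0.13) after thinning, Rspo3 (1.38) at up to 5% mitochondrial UMIs, and Hbb-y (-0.091) and Hba-x (-0.32) at up to 1% haemoglobin. Over all genes called in the main fit, 17 of the 1029 tested again against distal barcodes changed sign after thinning. With separate UMI sets 43 of 1013 did. Against all others these numbers were 83 of 3902 and 71 of 3840, and between Dlx2 and Runx1 members 12 of 58 and 0 of 62. After thinning 1 gene against distal barcodes and 3 against all others were called the opposite way. The cause was not tested. With either library left out, 1 sum a group was left and no test was made. No named gene that had passed the test changed sign, and the highest and lowest genes had been chosen for 1 direction in both libraries. Some named genes that had not passed, Prrx1 among them, had opposite signs in the male and the female library.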
